A study of Arabidopsis thaliana with 18 samples.

Results

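The genes described here are 8 Arabidopsis genes for enzymes that remove reactive oxygen species, taken by locus from a table of 33655 features: the catalases CAT1 (AT1G20630), CAT2 (AT4G35090) and CAT3 (AT1G20620), the ascorbate peroxidases APX1 (AT1G07890) and APX2 (AT3G09640), and the superoxide dismutases CSD1 (AT1G08830), CSD2 (AT2G28190) and FSD1 (AT4G25100). Of these 8 genes, 7 passed the filter on low counts, as did 18078 features in all, and APX2 did not. Transcripts were measured by 3′ Tag-Seq, which sequences the 3′ end of polyadenylated RNA, in whole seedlings of the wild type Col-0, the double mutant hec1hec2 and the quadruple mutant pifQ. All 3 genotypes are in the Col-0 background, were grown in continuous white light on medium without sucrose for 5 days at 22°C according to the labels (the methods of the paper give a later age), and were then kept at 22°C or moved to 28°C for 24 hours. This gave 6 groups of 3 libraries, described in the methods as independent biological replicates. HEC1 and HEC2 are helix-loop-helix proteins known to act against the PHYTOCHROME INTERACTING FACTORS, and pifQ carries mutations in 4 of these factors, PIF1, PIF3, PIF4 and PIF5. The mutant alleles are not given in the sources used here.

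Superoxide dismutases turn superoxide into hydrogen peroxide and oxygen, using copper and zinc (the CSD enzymes) or iron (FSD1). Hydrogen peroxide is then split by catalase, mostly in peroxisomes, or reduced by ascorbate peroxidases with ascorbate that is regenerated by the ascorbate-glutathione cycle. CAT2 is known as the main leaf catalase and removes the hydrogen peroxide of photorespiration, CAT3 is known from vascular and older tissue, and CAT1 from seeds and pollen. APX1 and APX2 are cytosolic, and APX2 is known for its induction by heat and excess light. CSD1 is cytosolic, CSD2 sits in the chloroplast, and FSD1 is best known from the chloroplast stroma. When copper is scarce, the regulator SPL7 raises the microRNA miR398, which lowers CSD1, CSD2 and their copper chaperone CCS, and raises FSD1.

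Library totals ranged from 3631558 to 6285632 counts (median 4599322). One library, pifQ 22°C replicate 2, stood apart: 41.2% of its counts fell on chromosome 1, against 29.1% to 30.1% in the other 17 libraries, and 10.1% on chromosome 5, against 19.3% to 20.6%. Its tested genes on either side of a locus were raised together, to 161% of the other libraries at APX1, 163% at CSD1, 154% at CAT1, 155% at CAT3 and 129% at CSD2, whereas the neighbourhoods of CAT2 (95.5%) and FSD1 (93.2%) were not. Values of the genes described above are therefore given with this library and without it. Fold changes of single genes from the other lists include it, so those in pifQ carry its uneven counts. Of the listed genes named below, MDAR6, GSTU24 and GSTU25 are among those on chromosome 1. LAC17, FRO4, DREB2A and HSFA3 are among those on chromosome 5. The labels were checked on the targeted genes. HEC1 was counted 33 to 64 times a library in Col-0 at 22°C but 3282 to 3308 times in libraries labelled hec1hec2 at that temperature, against the label, and HEC2 had 0 counts in those 3 libraries and 2 to 6 at 28°C. PIF3 (1 to 6 counts) and PIF5 (3 to 12) were low in the pifQ libraries at both temperatures, whereas PIF1 and PIF4 were still counted there (66 to 97 and 60 to 523). Green tissue markers were strong in every library, and their summed level was lower at 28°C (22517 to 30025 CPM, counts scaled to a common library size) than at 22°C (33068 to 48439), of which RBCS1A, the small subunit of Rubisco, and FBA2 fell and LHCB2.1 rose in all 3 genotypes. Among 4 flower and seed markers, AG was at 0 counts in all libraries and AP3 at 13 counts in total, while the seed storage gene CRA1 went from 0 to 6 counts a library at 22°C to 18 to 67 at 28°C. What part such shifts in tissue make-up have in the values that follow was not tested, and in whole seedlings fewer cells of a type and less RNA per cell cannot be told apart.

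Because 1 tag is expected for each transcript whatever its length, normalized CPM can be set side by side between genes. Averaged over the 18 libraries, CAT3 was highest at 817 normalized CPM (rank 130 of the tested genes), followed by FSD1 at 734 (rank 156), CAT2 at 578 (rank 209), APX1 at 424 (rank 308), CSD2 at 132 (rank 1170), CSD1 at 119.9 (rank 1291) and CAT1 at 39.2 (rank 4205). Neighbours in this order overlapped over the libraries except at 2 steps: APX1 (242 to 715) lay above CSD2 (106 to 159) in every library, and CSD1 (91.1 to 153) lay above CAT1 (21.1 to 58.0). The order was not the same in each group. In libraries labelled hec1hec2 at 22°C, CAT3 stood at 495 ± 6.66 CPM (SD, n = 3) below FSD1 (783 ± 79.6), CAT2 (736 ± 115) and APX1 (515 ± 13.8).

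**Figure D1:**
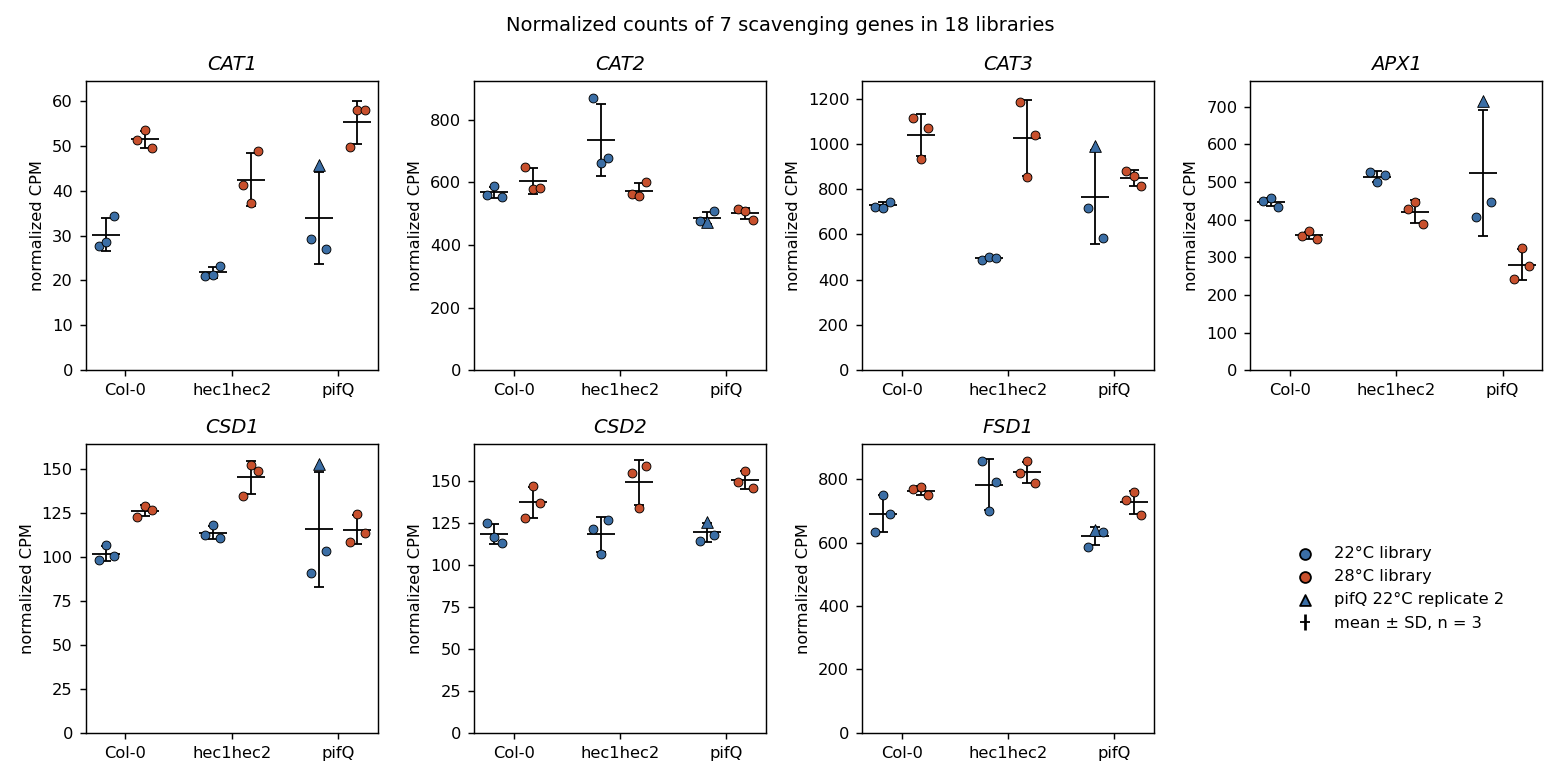
Normalized CPM (y axis, from 0) of the 7 tested genes by genotype (x axis), with 1 point for each library at 22°C (blue) or 28°C (orange) and the group mean ± SD (n = 3). The triangle marks pifQ 22°C replicate 2, which is the highest 22°C library of that genotype for CAT1, CAT3, APX1, CSD1, CSD2 and FSD1.

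APX2 was all but absent. It had 2 counts in total, 1 in hec1hec2 28°C replicate 1 and 1 in pifQ 22°C replicate 3, and 0 counts in the other libraries. A count of 0 allows up to 3 counts in a library, or 0.477 to 0.826 CPM at these depths, so no difference between groups was detectable, and no fold change is given. This gene, inducible by severe heat, was not seen above that limit at 28°C in any genotype.

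Warmth raised CAT1 and CAT3 in Col-0, raised CAT1, CAT3 and CSD2 and lowered CAT2 in libraries labelled hec1hec2, and raised CAT1 and CSD2 and lowered APX1 in pifQ. These are 2, 4 and 3 of the 7 tested genes with an FDR of at most 0.05 in edgeR's quasi-likelihood test (Benjamini-Hochberg adjustment over all 18078 genes). Among all tested genes the share past the same threshold was 26% in Col-0, 29.2% in hec1hec2 and 27.4% in pifQ. Without pifQ 22°C replicate 2 the counts were 4, 6 and 5 genes, against 33.7%, 36.7% and 28.2% of all tested genes. The members' median log2 fold change was 0.22, 0.34 and 0.15 in the 3 genotypes, beside 0.04, 0.05 and 0.00 over all tested genes. Rises and falls offset each other in such a median. Single members ran from -0.32 to 0.76 in Col-0, from -0.36 to 1.05 in hec1hec2 and from -0.90 to 0.71 in pifQ. Only CAT3 in hec1hec2 was past both the FDR threshold and 2-fold (together called a DEG here), as 8.93% of all tested genes were there, while 0 members were in Col-0 or pifQ, where 7.94% and 7.82% were.

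**Figure D2:**
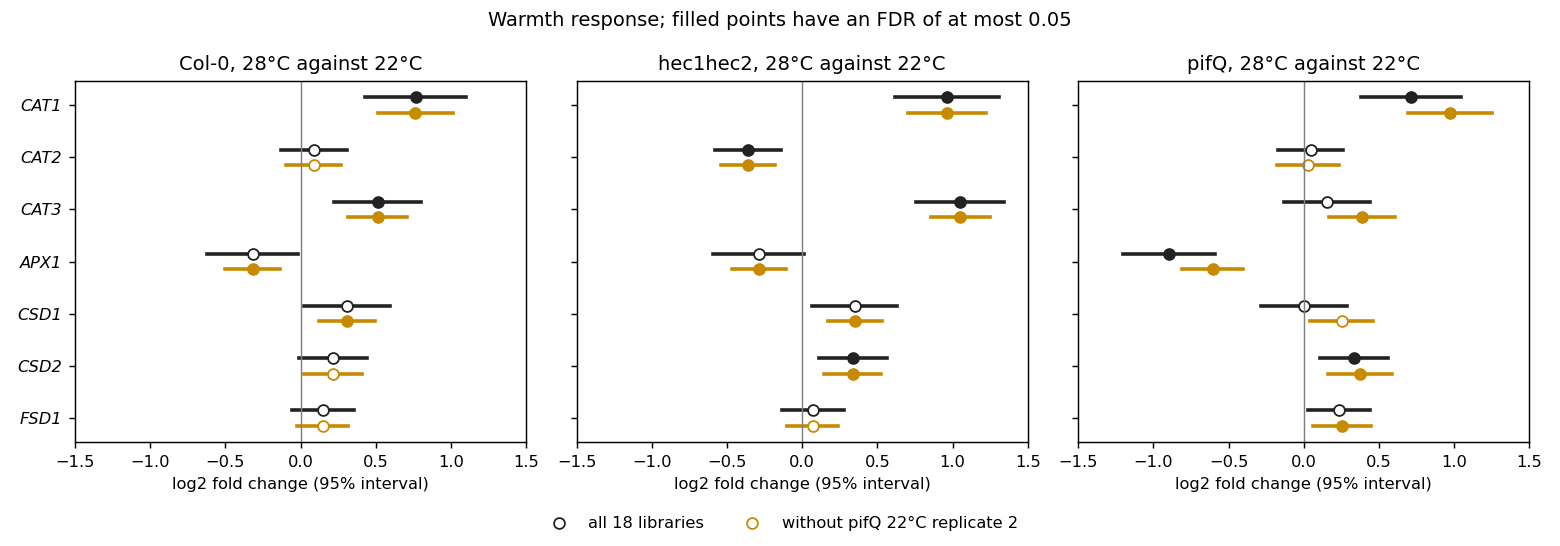
Log2 fold change at 28°C against 22°C (x axis) of the 7 tested genes (y axis) in each genotype, with 95% intervals, from the model of all 18 libraries (black) and without pifQ 22°C replicate 2 (ochre); filled points have an FDR of at most 0.05. CAT1 lies right of 0 in all 3 panels under both models, APX1 lies left of 0, and the pifQ values of APX1, CAT1, CSD1 and CAT3 move most when the library is left out.

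CAT3, the most abundant catalase over all libraries, rose in Col-0 and in libraries labelled hec1hec2. In Col-0 its 3 libraries at 22°C had 722, 719 and 744 normalized CPM and those at 28°C had 1114, 934 and 1070.3, a log2 fold change of 0.51 ± 0.14 (SE, FDR = 0.0080). The 2 groups did not overlap, as for 44.7% of all tested genes. Libraries labelled hec1hec2 had 488, 501 and 497 CPM at 22°C and 1187, 852 and 1039 at 28°C. The log2 fold change there was 1.05 ± 0.14 (FDR = 2.7e-06), and every alternative tried left the FDR past its threshold. The log2 fold change ran from 0.93 to 1.17 over these alternatives, so the 2-fold part of the DEG call did not hold in each. The 22°C values were thus the lowest of all groups and tightly grouped, and the 28°C values reached those of Col-0. In pifQ, the 22°C libraries had 719, 993 and 584 CPM and the 28°C libraries had 882, 856 and 813, and the groups overlapped (log2 fold change 0.15 ± 0.14, FDR = 0.44). The 993 belongs to the library that stood apart, and without it the log2 fold change was 0.38 ± 0.11 (FDR = 0.0070).

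CAT3 lies on chromosome 1, + strand, at 7142972 to 7146540 in TAIR10.1, and CAT1 follows it on the same strand after 95 bases, so that both share the raised neighbourhood of pifQ 22°C replicate 2. Most of the 250 bases before the annotated start of CAT1 belong to CAT3 (155 bases). The 250 bases before the start of CAT3 (chr1:7142722-7142971, + strand, TAIR10.1, read from RefSeq) are shown because they hold the single evening element (AAAATATCT, on either strand, in capitals) found before any of the 8 genes, a motif known from clock-regulated plant promoters.
CAT3: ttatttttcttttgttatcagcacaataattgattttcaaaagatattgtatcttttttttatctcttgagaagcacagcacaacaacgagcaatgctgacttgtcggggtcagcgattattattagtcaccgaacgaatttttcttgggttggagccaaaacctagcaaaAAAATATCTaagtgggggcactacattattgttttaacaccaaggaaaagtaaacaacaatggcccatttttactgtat
The first base of the motif is 79 bases before the start, and 2.36% of 27443 promoters of this length hold such a match. Neither the G-box (CACGTG, in 6.49% of promoters) nor the PBE-box (CATGTG, in 11.1%), motifs that PIF proteins are known to bind, was found in this window for any tested member. APX2 had 1 G-box, 204 bases before its start. A GAANNTTC match, the core spacing of heat shock elements, was found once before APX1 and once before APX2 and is in 9.55% of promoters. GTAC, the core of the motif bound by SPL7, was found before CAT2, CSD1, FSD1 and APX2 and is in 34.3% of promoters. A match is a description of letters and not of binding.

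CAT1, the least abundant catalase, rose in the 3 genotypes. Col-0 libraries had 27.6, 28.6 and 34.4 normalized CPM at 22°C and 51.4, 53.4 and 49.6 at 28°C (log2 fold change 0.76 ± 0.16, FDR = 0.0011). Libraries labelled hec1hec2 had 21.1, 21.2 and 23.3 CPM at 22°C and 41.4, 37.2 and 48.8 at 28°C (0.96 ± 0.17 on the log2 scale, FDR = 8.8e-05). In pifQ they were 29.2, 45.7 and 27.0 CPM at 22°C and 49.7, 57.9 and 58.0 at 28°C (0.71 ± 0.16, FDR = 0.0016), and without the library at 45.7 the log2 fold change was 0.97 ± 0.14. In a fit of only the pifQ libraries the CAT1 call was lost (FDR = 0.057). In no genotype did the groups overlap, as was so for 44.7%, 47.2% and 35.9% of all tested genes in Col-0, hec1hec2 and pifQ.

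CAT2, the photorespiratory catalase, passed the test in 1 genotype, and in the direction of a fall. Col-0 libraries had 561, 588 and 554 normalized CPM at 22°C and 651, 579 and 582 at 28°C, and the groups overlapped (log2 fold change 0.09, 95% interval -0.13 to 0.31). The pifQ libraries had 476, 475 and 509 CPM at 22°C and 514, 509 and 481 at 28°C (log2 fold change 0.04, 95% interval -0.17 to 0.26). In libraries labelled hec1hec2 CAT2 fell, from 868, 661 and 677 CPM to 564, 556 and 600.4 (log2 fold change -0.36 ± 0.11, FDR = 0.012). The call rested on hec1hec2 22°C replicate 1, the library at 868 CPM, without which the log2 fold change was -0.22 (FDR = 0.13).

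The make-up of the catalase pool followed from these values. CAT3 had more counts than CAT2 in all 15 libraries outside hec1hec2 at 22°C, and CAT2 had more than CAT3 in all 3 libraries of that group. CAT2 made up 42.8% ± 1.24 of catalase counts in Col-0 at 22°C and 35.7% ± 1.40 at 28°C (SD, n = 3). In hec1hec2 it went from 58.5% ± 3.95 to 35.2% ± 3.51, and in pifQ from 38.6% ± 7.04 to 35.6% ± 0.125. The pifQ mean at 22°C includes the library that stood apart, at 31.4%, where the neighbourhood of CAT1 and CAT3 was raised and that of CAT2 was not. Without it the CAT2 share in that group ran from 38.9% to 45.4%, above the 35.6% to 35.8% of pifQ at 28°C. CAT1 made up 1.75% to 3.93% by group mean. With 3 libraries against 3, the exact two-sided permutation test cannot give a p below 0.10, and none of the 42 share comparisons passed after adjustment (lowest adjusted p = 0.2625). For the CAT2 share in Col-0 and in hec1hec2 the groups did not overlap, which is the case that gives this smallest value.

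**Figure D3:**
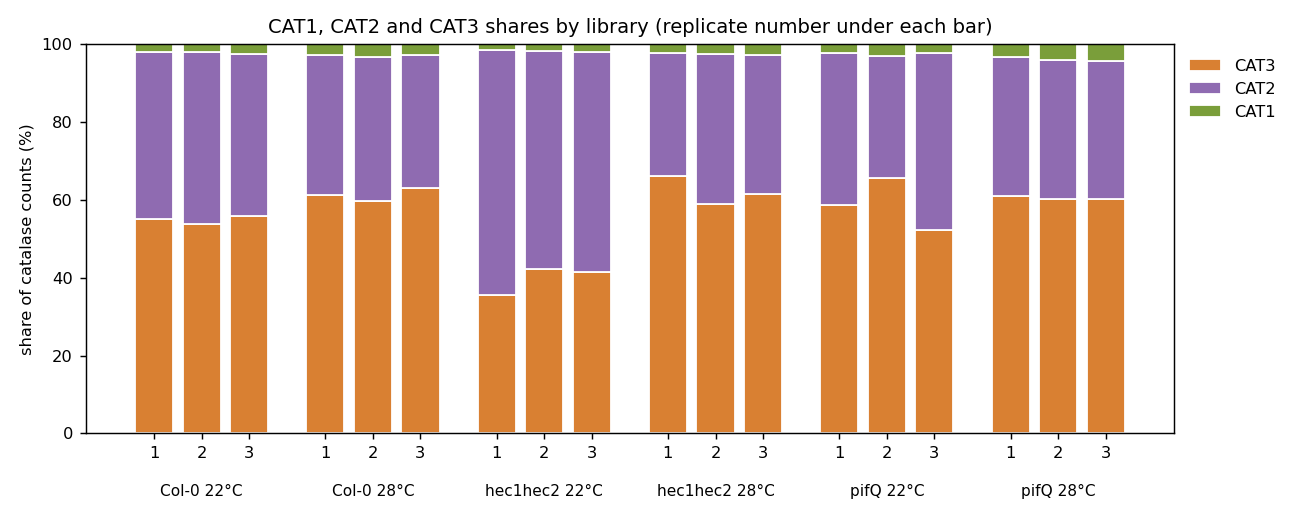
Share of all catalase counts (y axis, %) taken by CAT3 (orange), CAT2 (purple) and CAT1 (green) in each of the 18 libraries (x axis, by group and replicate). The 3 libraries labelled hec1hec2 at 22°C are the ones in which CAT2 takes more than CAT3.

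APX1, the main cytosolic ascorbate peroxidase, was lower at 28°C. Its libraries in Col-0 had 449.7, 457 and 434 normalized CPM at 22°C and 356, 369.5 and 349 at 28°C, with no overlap (as for 44.7% of all tested genes). The fitted change of -0.32 ± 0.15 on the log2 scale did not pass (FDR = 0.11). Libraries labelled hec1hec2 had 526, 499 and 519 CPM at 22°C and 429, 447 and 388 at 28°C (-0.29 ± 0.15, FDR = 0.14). In pifQ at 22°C the libraries had 408, 715 and 448 CPM, where 715 is the library that stood apart. Without that library the standard errors of the other genotypes were smaller, and APX1 passed in Col-0 (-0.32 ± 0.09 on the log2 scale, FDR = 0.0056) and in hec1hec2 (-0.29 ± 0.09, FDR = 0.010). In pifQ, with 242, 324 and 276 CPM at 28°C, APX1 fell by 0.90 ± 0.15 on the log2 scale (FDR = 5.6e-05), and by 0.61 ± 0.10 without it (FDR = 1.4e-05). The 2 groups did not overlap with that library, as for 35.9% of all tested genes, or without it.

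The copper enzymes CSD1 and CSD2 are known targets of miR398, whose sequences and best-matching windows in the annotated transcripts are shown because they set apart CSD1 from the other genes. Capitals in the microRNAs mark the seed, bases 2 to 8, and capitals in the sites mark bases that can pair with miR398b-3p by Watson-Crick rules without gaps.
miR398a-3p: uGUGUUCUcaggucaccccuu
miR398b-3p: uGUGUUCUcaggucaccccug
CSD1: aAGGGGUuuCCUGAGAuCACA
CSD2: ugcGGGUGACCUGgGAAacau
CCS: auuGGGaGACCUGgGAACACu
The mature sequence of miR398c-3p equals that of miR398b-3p, and all 3 share their seed. The CSD1 window lies in the 5′ UTR (chromosome 1, + strand, 2827177 to 2827685 in TAIR10.1, across an intron) with 17 of 21 bases paired. By the mismatch penalty used, 9 of 31460 genes, CSD1 included, had a window that paired as well or better. The penalty charged a G-U pair less than a mismatch, whereas the capitals and numbers of paired bases count Watson-Crick pairs only. The shares that follow also include the gene itself. The CCS window (15 of 21, coding) was matched by 1.57% of genes. The CSD2 window (13 of 21, coding, chromosome 2, 12015572 to 12015592) was matched by 12.2%, as was the best window of FSD1, so an ungapped count does not set CSD2 apart. The best windows of the catalases and ascorbate peroxidases were matched by 28.0% to 75.5% of genes. The 3 MIR398 precursor loci had 0 to 16 counts a library, and mature miR398 is not read by this assay.

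CSD1 libraries in Col-0 had 98.5, 107 and 100.5 normalized CPM at 22°C and 123, 129 and 127 at 28°C, and in hec1hec2 112, 118 and 111 CPM at 22°C and 135, 152 and 149 at 28°C. Neither pair of groups overlapped, as for 44.7% of all tested genes in Col-0 and 47.2% in hec1hec2. The log2 fold changes of 0.31 ± 0.14 (FDR = 0.10) and 0.35 ± 0.14 (FDR = 0.056) did not pass in the model of all libraries, and passed without pifQ 22°C replicate 2 (FDR = 0.0089 and 0.0022). In pifQ the CSD1 libraries had 91.1, 153 and 104 CPM at 22°C and 109, 125 and 114 at 28°C, with 153 in the library that stood apart. The log2 fold change was 0.00 with it and 0.25 ± 0.10 without it (FDR = 0.065).

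CSD2 libraries in Col-0 had 125, 117 and 113 normalized CPM at 22°C and 128, 147 and 137 at 28°C (log2 fold change 0.22 ± 0.11, FDR = 0.16). Those labelled hec1hec2 had 121, 106 and 127 CPM at 22°C and 155, 134 and 159 at 28°C, a rise of 0.34 ± 0.11 on the log2 scale (FDR = 0.023). In pifQ, 114, 126 and 118 CPM at 22°C became 149.6, 156 and 146 at 28°C, a rise of 0.33 ± 0.11 (FDR = 0.025). No pair of groups overlapped, as for 44.7%, 47.2% and 35.9% of all tested genes in Col-0, hec1hec2 and pifQ. The pifQ call held without pifQ 22°C replicate 2 (0.37 ± 0.11, FDR = 0.0072), but in each mutant the call was lost with some other library left out (FDR up to 0.12 in hec1hec2 and 0.079 in pifQ) and without the filter on low counts (FDR = 0.095 and 0.055). In a fit of only the pifQ libraries it was also lost (FDR = 0.14).

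FSD1, the iron enzyme, was the most abundant dismutase transcript, with 72.6% to 77.0% of the counts of the 3 dismutases by group mean. The lowest mean, in pifQ at 22°C, includes pifQ 22°C replicate 2 at 69.7%, and the other libraries of that group were at 74.0% to 74.1%. Col-0 libraries had 632, 749 and 691 normalized CPM at 22°C and 770.1, 774 and 748 at 28°C (log2 fold change 0.15, 95% interval -0.06 to 0.35), and the groups overlapped. Libraries labelled hec1hec2 had 858, 699.6 and 791 CPM at 22°C and 819.9, 856 and 789 at 28°C (log2 fold change 0.07, 95% interval -0.14 to 0.27). The pifQ libraries had 587, 639 and 632 CPM at 22°C and 733, 760.3 and 688 at 28°C, without overlap, as for 35.9% of all tested genes. The log2 fold change there was 0.23 ± 0.10 (FDR = 0.088), and 0.25 ± 0.09 without pifQ 22°C replicate 2 (FDR = 0.042).

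Genotypes were compared at each temperature by their labels. Libraries labelled hec1hec2 held more HEC1 counts than Col-0, PIF1 and PIF4 were still counted in pifQ, and the alleles are not given. The differences are therefore between labelled libraries and are not read as effects of losing the HEC or PIF genes. At 22°C, 1 of the 7 genes differed between libraries labelled hec1hec2 and Col-0, where 1.7% of all tested genes passed: CAT3 was lower (log2 fold change -0.56 ± 0.14, FDR = 0.040). The 2 groups did not overlap for CAT1, CAT2, CAT3, APX1 and CSD1, as for 20.2% of all tested genes. The CAT3 call held with 8 of the 18 libraries left out in turn, and leaving out any library of the 2 groups compared ended it (FDR up to 0.15), with the direction kept. Without pifQ 22°C replicate 2, which is in neither group but enters the shared estimate of the spread, 3 genes passed, where 3.52% of all tested genes did: CAT3 (FDR = 0.00029), CAT1 (log2 fold change -0.48 ± 0.13, FDR = 0.035) and CAT2 (0.37 ± 0.09, FDR = 0.011), with CAT2 higher. At 28°C, 0 genes passed for hec1hec2 in edgeR's test or DESeq2 and 0 had an unadjusted p under 0.05 (1.44% of all tested genes passed, and 3.83% without that library). CAT1, APX1, CSD1 and FSD1 did not overlap between these groups, as for 20.6% of all tested genes. The CAT3 difference at 28°C was -0.02 on the log2 scale with a 95% interval of -0.31 to 0.27.

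For pifQ against Col-0, 0 of the 7 genes passed in edgeR's test or DESeq2 at 22°C (1 with an unadjusted p under 0.05, CAT2; 0.0553% of all tested genes passed, and 0.0653% without the library that stood apart) and 0 at 28°C (3 with an unadjusted p under 0.05, namely CAT2, APX1 and CAT3; 1.47% passed). Groups did not overlap for CAT2 at 22°C, as for 12.6% of all tested genes, and for these 3 genes at 28°C, as for 19% of all tested genes. At 22°C the directions depended on the library that stood apart: the log2 differences of APX1, CSD1, CAT3, CAT1 and CSD2 were 0.23, 0.18, 0.07, 0.16 and 0.01 with it, and -0.06, -0.07, -0.16, -0.11 and -0.02 without it. At 28°C APX1 was at 281 ± 41.0 CPM in pifQ and 358 ± 10.3 in Col-0 (SD, n = 3), a log2 difference of -0.35 ± 0.15 (FDR = 0.35) that passed without that library (FDR = 0.018, where 4.08% of all tested genes passed).

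The interaction asks whether the response to warmth itself differed from that of Col-0. None of the 7 genes passed in edgeR's test or DESeq2, for hec1hec2 (2 with an unadjusted p under 0.05; 0.0166% of all tested genes passed) or for pifQ (1; 0.0608% passed). The 3 were CAT3 in hec1hec2 (difference of log2 fold changes 0.54 ± 0.20, unadjusted p = 0.012 in edgeR's test, FDR = 1.00), CAT2 in hec1hec2 (-0.45 ± 0.15, unadjusted p = 0.0061, FDR = 0.88) and APX1 in pifQ (-0.58 ± 0.21, unadjusted p = 0.010, FDR = 0.53). Without pifQ 22°C replicate 2 the FDR was 0.10 for CAT3, 0.19 for CAT2 and 0.66 for APX1, and 0.207% (hec1hec2) and 0.158% (pifQ) of all tested genes passed. The 3 genotypes are thus not shown to differ in the warmth response of any of these genes, although the calls within each genotype are not the same. The contrasts share groups, so that a low 22°C value in hec1hec2 enters both its genotype difference and its warmth response.

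The rest of the scavenging network was read from lists of 85 other genes in all. Genes named as DEGs are given for the genotypes in which they were DEGs, and a genotype left out is not shown to lack the change. Without pifQ 22°C replicate 2, 0 genes of these lists passed either interaction, where 0.207% (hec1hec2) and 0.158% (pifQ) of all tested genes did. Of 6 other dismutase genes (the chaperone CCS included), 2 rose with warmth in Col-0, 3 in hec1hec2 and 2 in pifQ, and 2, 2 and 1 fell. Over all tested genes 13.2%, 14.9% and 13.1% were higher and 12.8%, 14.3% and 14.3% lower in the same genotypes, which is the background for each list that follows. The list medians were 0.12, 0.04 and 0.15 on the log2 scale, beside 0.04, 0.05 and 0.00 over all tested genes. The peroxisomal CSD3 rose in all 3 genotypes (log2 fold change 0.72, 0.50 and 0.79) and the mitochondrial MSD1 fell (-0.48, -0.42 and -0.44). FSD2 fell in Col-0 (-0.82) and hec1hec2 (-0.84), and CCS rose there (0.83 and 0.75). CSD3, MSD1, FSD2 and CCS were named after their values were seen. MSD2, a manganese enzyme outside the mitochondria, rose in hec1hec2 (1.86 ± 0.66, FDR = 0.036) and pifQ (2.16 ± 0.59, FDR = 0.0076) on 1 to 4 counts a library at 22°C and 4 to 12 at 28°C in these mutants. The stromal and thylakoid ascorbate peroxidases, SAPX and TAPX, were the 2 of 6 other ascorbate peroxidases to change, also named after their values were seen. Both fell in Col-0, hec1hec2 and pifQ (SAPX -0.91, -0.93 and -0.70; TAPX -0.58, -0.64 and -0.68), while the list medians were -0.07, -0.21 and -0.09.

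Among genes of the ascorbate-glutathione cycle and of ascorbate and glutathione synthesis, those that passed were lower at 28°C: of 16 tested, 0 were higher and 9, 8 and 8 lower in Col-0, hec1hec2 and pifQ, beside the same background. The other 7, 8 and 8 did not pass, and their values reached up to 0.32, 0.06 and 0.21 on the log2 scale. The median log2 fold change of the 16 was -0.36, -0.41 and -0.39. GR1, the cytosolic and peroxisomal glutathione reductase, fell by 1.07 ± 0.18 in Col-0 and 1.23 ± 0.18 in hec1hec2 on the log2 scale. VTC2, which catalyses the committed step of ascorbate synthesis, fell by 1.30 ± 0.12 in hec1hec2, where its libraries went from 343 to 448 CPM at 22°C to 136 to 174 at 28°C. VTC4, a later step, fell by 1.02 ± 0.11 there, and the organellar monodehydroascorbate reductase MDAR6 fell by 1.03 ± 0.13 in hec1hec2 and 1.32 ± 0.13 in pifQ. Without pifQ 22°C replicate 2, 10, 11 and 9 of the 16 were lower, where 16.3%, 17.8% and 14.3% of all tested genes were, and 0 were higher, where 17.5%, 19% and 13.9% were.

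**Figure D4:**
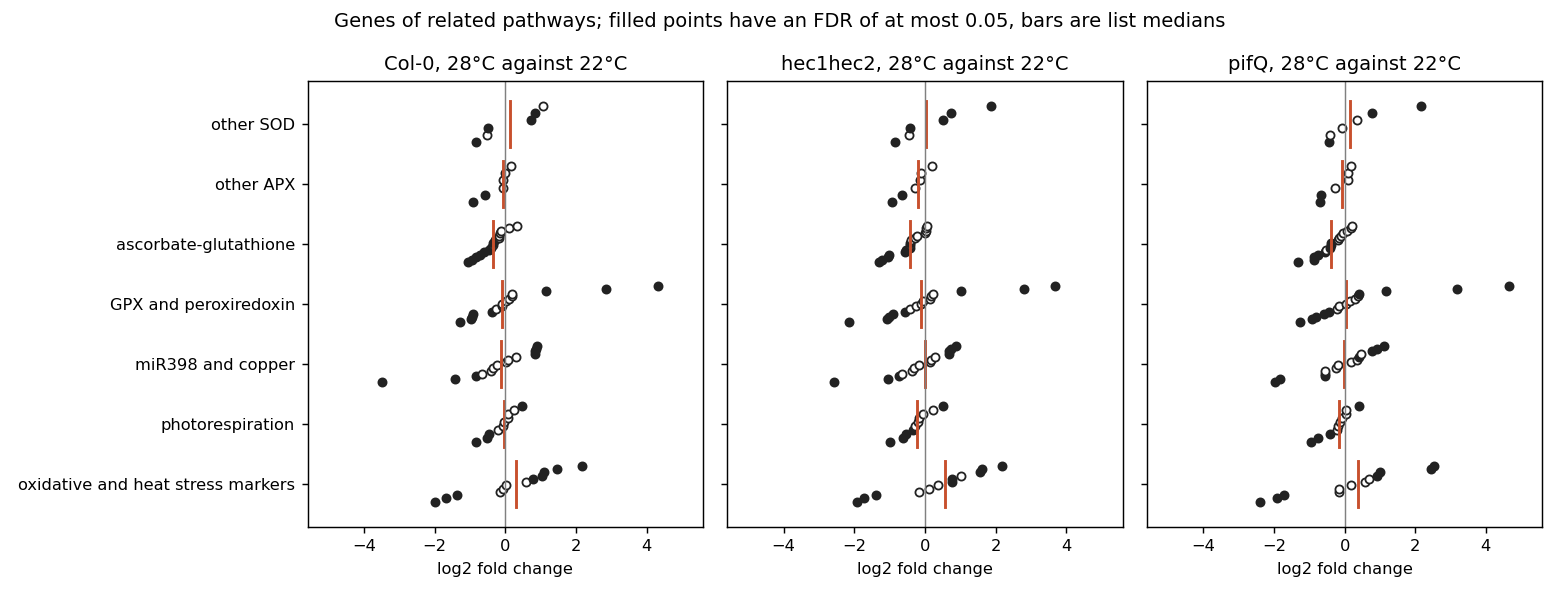
Log2 fold change at 28°C against 22°C (x axis) of each tested gene in 7 lists of related genes (y axis) for Col-0, hec1hec2 and pifQ, with filled points at an FDR of at most 0.05 and vertical bars at list medians. The filled points of the ascorbate-glutathione list all lie left of 0, while PER1 and PRXIIC lie furthest right in the glutathione peroxidase (GPX) and peroxiredoxin list.

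Of 15 tested glutathione peroxidases and peroxiredoxins, 3, 3 and 4 were higher (13.2%, 14.9% and 13.1% of all tested genes were) and 5, 5 and 5 lower (12.8%, 14.3% and 14.3%). Their medians were -0.10, -0.12 and 0.05, beside 0.04, 0.05 and 0.00 over all tested genes. PER1, a 1-cysteine peroxiredoxin known from seeds, rose from 3 to 9 counts a library to 115 to 198 in Col-0 (log2 fold change 4.33 ± 0.33). PRXIIC, a cytosolic peroxiredoxin, rose from 30.4 to 66.0 CPM to 297 to 425 (2.84 ± 0.28), and the chloroplast GPX1 from 139 to 166 CPM to 299 to 391 (1.14 ± 0.17). PRXIIC rose by a log2 fold change of 3.69 in hec1hec2 and 3.18 in pifQ, PER1 by 2.79 and 4.65, and GPX1 by 1.03 and 1.16. The chloroplast GPX7 fell in the 3 genotypes (-1.30, -2.17 and -1.25), and the chloroplast peroxiredoxins PRXQ (-1.07) and 2CPA (-1.03) fell by more than 2-fold in hec1hec2. PER1 and the seed marker CRA1 were both higher at 28°C, and the part of seed-type transcripts in the PER1 value was not tested. Between genotypes 3 listed genes passed with all libraries, all higher in hec1hec2 than in Col-0 at 22°C, where 1.7% of all tested genes passed: PER1 (log2 fold change 1.97 ± 0.40, FDR = 0.0076), VTC2 (0.52 ± 0.12, FDR = 0.023, named after its value was seen) and COPT2. Without pifQ 22°C replicate 2 (3.52% of all tested genes), 3 ascorbate-glutathione genes were higher there, and 1 peroxidase or peroxiredoxin gene was higher and 1 lower. At 28°C, 1 photorespiration gene was then lower in hec1hec2 (3.83%). In pifQ at 28°C, 2 peroxidase or peroxiredoxin genes were then higher and 1 gene of the copper list lower (4.08%).

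Of 14 tested genes of miR398 and copper use, 4 were higher in each genotype (13.2%, 14.9% and 13.1% of all tested genes were) and 3, 3 and 4 lower (12.8%, 14.3% and 14.3%), with medians of -0.11, -0.01 and -0.01. FRO4, a copper reductase of the root surface, fell in Col-0 (-3.50 ± 0.54), hec1hec2 (-2.58 ± 0.40) and pifQ (-1.82 ± 0.51). The copper importer COPT2 fell in hec1hec2 (-1.06 ± 0.26) and pifQ (-1.96 ± 0.35), the plantacyanin gene ARPN in Col-0 (-1.44 ± 0.33), and the laccase gene LAC17 rose in pifQ (1.11 ± 0.30). These pifQ values include pifQ 22°C replicate 2, whose share of counts on the chromosome of LAC17 and FRO4 was low. SPL7, named for its role, gave log2 fold changes of 0.08, 0.15 and 0.17 (FDR = 0.81, 0.59 and 0.53). COPT2 at 22°C was higher in hec1hec2 than in Col-0 by a log2 difference of 1.06 ± 0.27 (FDR = 0.039). The summed level of 4 root markers was 55.0 to 119 CPM there and 36.9 to 68.4 in Col-0, with overlap, and 1 of the 4, the root hair gene RHS19, passed the test (1.10 ± 0.26, FDR = 0.024). With warmth the summed level went to 26.2 to 33.3 CPM in Col-0 and 50.5 to 76.3 in hec1hec2. RHS19 was also higher in hec1hec2 than in Col-0 at 28°C (1.68 ± 0.30, FDR = 0.0022), where 1.44% of all tested genes passed. The part of root tissue in the FRO4 and COPT2 values was not tested.

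Of 10 tested photorespiration genes, 1 was higher in each genotype and 3, 4 and 3 were lower, none by 2-fold, with medians of -0.05, -0.23 and -0.16. In Col-0, hec1hec2 and pifQ, 13.2%, 14.9% and 13.1% of all tested genes were higher and 12.8%, 14.3% and 14.3% lower. Of 12 tested markers of oxidative and heat stress, 5, 5 and 4 were higher and 3 lower in each, with medians of 0.31, 0.57 and 0.38. The heat response genes MBF1C (2.18, 2.17 and 2.53), DREB2A (1.10, 1.61 and 2.44) and HSFA3 (1.45, 1.55 and 1.01) rose in the 3 genotypes, and the chaperone HSP101 rose by more than 2-fold in Col-0 (1.03 ± 0.24). The glutathione transferases GSTU24 (-1.38, -1.39 and -1.90) and GSTU25 (-2.01, -1.92 and -2.38) and the kinase gene OXI1, known to respond to hydrogen peroxide (-1.67, -1.71 and -1.70), fell in the 3 genotypes.

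The genes whose log2 CPM followed each member most closely over the 17 libraries without pifQ 22°C replicate 2 were found by Pearson's r, given without a test because all points share the 6 groups. For CAT3 they were AT5G14920 (r = 0.97), the photoreceptor gene PHYA (0.96) and AT5G12950 (0.96). For CAT1 they were AT4G38932 (0.97), AT2G46550 (0.97) and ACX4, an acyl-CoA oxidase of peroxisomes (0.97). For CAT2 they were AOR (0.94), AT3G21670 (0.87) and RD22 (0.86). For APX1 they were PRP4 (0.97), ECS1 (0.96) and ADC2 (0.96). For CSD1 they were AT5G26270 (0.92), AT4G12545 (0.92) and AT3G10300 (0.92), for CSD2 AT5G51390 (0.90), ATG3 (0.90) and PYL7 (0.90), and for FSD1 BAG3 (0.87), AT3G51330 (0.87) and cPT4 (0.86). Among the members, the 4 pairs with the largest absolute r were CAT1 with CAT3 (0.85), CAT1 with APX1 (-0.84), CAT1 with CSD2 (0.80) and CSD1 with FSD1 (0.76).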

How the data were processed

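Raw counts of reads per gene were deposited by the authors, who checked reads with FastQC, aligned them with TopHat and Bowtie2, used the TAIR10 annotation and counted with HTSeq; versions, strand setting and handling of duplicates are not given in the sources used here. CAT1, CAT2 and CAT3 are similar in sequence and the division of shared reads was the authors'. The labels describe no molecular identifiers, so floors cover counting error only. From the counts, normalized CPM and tests were computed with edgeR version 4.0.16 in R version 4.3.3 (TMM, filterByExpr by group, glmQLFit and glmQLFTest), in 1 model of 6 groups over 18 libraries without other covariates, with Benjamini-Hochberg adjustment over 18078 genes. A gene passed at an FDR of at most 0.05, and a DEG also changed by at least 2-fold. Standard errors were derived from each log2 fold change and its F statistic. The common dispersion was 0.0164. Shares were compared by exact two-sided permutation tests.

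Alternatives were RLE factors, no filter, DESeq2 version 1.42.0, a fit of the compared groups alone, a replicate block, leaving out each library, and a local scaling of pifQ 22°C replicate 2 over 201 neighbouring genes. The members and lists were chosen with earlier results of these data known. All 8 members are described, as are the 3 genes most alike to each member. Genes of the lists of related pathways are described if they were DEGs in a temperature or genotype contrast (up to 6 for a list and contrast). The targeted genes and tissue markers served as checks, and not all their DEG calls are given. Sequences and positions come from the RefSeq TAIR10.1 genome, looked up by locus. The table holds 1107 features without a standard locus identifier, which stayed in the library sizes.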

Additional observations from a re-analysis of the deposited data

How the results depend on the processing

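The number of members past the test was within 1.5 times the reported one for RLE factors, no filter and the replicate block, and moved otherwise as follows. Fits of only the groups compared gave 4 members for warmth in Col-0, 1 in pifQ, 3 for hec1hec2 against Col-0 at 22°C and 1 for pifQ against Col-0 at 28°C. Over all tested genes these fits called 6098 of 17092, 2353 of 17126, 732 of 17066 and 638 of 17074 in the same order. The main model called 4704, 4952, 308 and 265 of 18078. The local scaling of pifQ 22°C replicate 2 gave 4, 5, 3 and 1 members in the same order, and 6201, 5907, 681 and 771 of all 18078 tested genes. DESeq2 gave 2 members for hec1hec2 against Col-0 at 22°C (CAT3 and CAT2), where 330 of 17685 genes passed. With each library left out in turn, the counts ran from 2 to 4 for warmth in Col-0, 3 to 6 in hec1hec2 and 2 to 5 in pifQ, from 0 to 3 for hec1hec2 and 0 to 0 for pifQ against Col-0 at 22°C, from 0 to 0 and 0 to 1 at 28°C, and were 0 for both interactions.

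Sign changes touched values close to 0 and comparisons with pifQ at 22°C. For CSD2 between hec1hec2 and Col-0 at 22°C, RLE factors gave 0.0068, no filter 0.00029 and DESeq2 0.0065 on the log2 scale. Fits of only the groups compared gave -0.0093 for CSD1 in pifQ. Under the local scaling, pifQ differed from Col-0 at 22°C by -0.046 for APX1, -0.089 for CSD1, -0.17 for CAT3, -0.081 for CAT1 and -0.11 for CSD2, and the CAT1 interaction was 0.19. Leaving out single libraries gave -0.0071 to 0.14 for FSD1 in hec1hec2, -0.15 to 0.25 for CSD1 and -0.0090 to 0.38 for CAT3 in pifQ, -0.014 to 0.087 for the APX1 interaction of hec1hec2, -0.19 to 0.21 for CAT1 and -0.074 to 0.013 for the CAT2 interactions of pifQ, -0.052 to 0.070 for CSD2 between hec1hec2 and Col-0 at 22°C, and -0.14 to 0.098 for CAT3 at 28°C. For pifQ against Col-0 at 22°C it gave -0.063 to 0.38 for APX1, -0.070 to 0.33 for CSD1, -0.16 to 0.23 for CAT3, -0.11 to 0.29 for CAT1 and -0.024 to 0.055 for CSD2. The causes were not tested, other than that several of these settings remove or rescale pifQ 22°C replicate 2.

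Same-numbered libraries of different groups correlated in their deviations at -0.04 to 0.18 (median 0.05), and differently numbered ones at -0.13 to 0.11 (median -0.03). Libraries with the same number were thus somewhat more alike. The main model has no replicate term and does not take this into account. With the replicate block 2, 5 and 3 members passed for warmth in Col-0, hec1hec2 and pifQ, CSD1 in hec1hec2 being added (0.35, FDR = 0.029), and no other call changed. The block gave 6 genes for each interaction over all tested genes. A library correlated best with its own number in 66 of 90 comparisons (73.3%), each with the 3 libraries of another group.

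Over all tested genes, counts moved by more than 1.5 times mostly outside the warmth contrasts. For the interactions of hec1hec2 and pifQ (3 and 11 genes), no filter gave 36 and 54, only the groups compared 52 and 1, the local scaling 36 and 48, DESeq2 14 and 32, and RLE factors 5 for pifQ. For hec1hec2 against Col-0 at 22°C and 28°C (308 and 260) no filter gave 466 and 504, only the groups compared 732 and 786, and the local scaling 681 and 723. For pifQ (10 and 265) these gave 98 and 405, 5 and 638, and 13 and 771, and DESeq2 gave 26 at 22°C. Warmth in pifQ went from 4952 to 2353 with only its own libraries. APX2 and the MIR398 loci are limited by depth.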
